A study of Mus musculus with 12 samples.

Results

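The transcriptome of the whole testis of wild type mice aged 10 days was described from 5 arrays (WT 8 to WT 12), chosen by their label among the 12 arrays of a study on the retinoblastoma protein in Sertoli cells. The other 7 arrays came from testes of the same age with Rb1 deleted in Sertoli cells, on 1 allele (SC-Rb+/-, 3 arrays) or on both (SC-RbKO, 4 arrays), by Cre recombinase driven by the Amh promoter in mice with floxed Rb1. These 7 were used only to ask whether the genes that spread most among wild type arrays also spread within the other groups, and no genotype was compared with another. Neither the strain nor whether the wild type mice carried Cre or a floxed allele is stated in the labels, and they do not say whether each array had its own animal. The p-values therefore measure the spread between these samples, which may be technical.

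At this age the seminiferous tubules of the mouse hold Sertoli cells, which nurse the germ cells, and spermatogonia and early meiotic cells of the first wave of spermatogenesis. Spermatids have not yet formed. Around the tubules lie contractile peritubular myoid cells, and between them Leydig cells that make steroids, macrophages, vessels and fibroblast-like stroma. RNA of the whole organ mixes all of them, so more cells of a type and more RNA per cell cannot be told apart.

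The arrays, Illumina MouseWG-6 v2 BeadChips, carry 45281 bead-bound oligonucleotide probes, of which 34885 had a single gene symbol, covering 19057 genes. Levels are log2 of the authors' quantile-normalized intensity, and a gene stands at its brightest probe. A gene counted as detected on an array when a probe of it had a detection p under 0.05. Between 39.3 and 43.6 percent of probes were detected per wild type array, and median unnormalized intensities ran from 52.5 to 58.6. Pearson correlations between pairs of wild type arrays lay between 0.989 and 0.996. WT 12 lay farthest from the median array, with a root mean square distance of 0.237 log2 units against 0.123 to 0.163 for the other 4. Tests and ranges on which WT 12 bears are therefore also given without it.

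Of the 19057 genes, 9766 (51.2 percent) were detected on all 5 arrays, 1686 (8.85 percent) on 1 to 4 and 7605 (39.9 percent) on none. Detected genes spanned levels from 6.07 to 15.04 with a median of 8.55. Genes detected on some arrays had a median of 6.03, and genes detected on none a median of 5.51. The number of genes detected per array ran from 10118 on WT 9 to 10888 on WT 8, and 259 genes were missed by WT 9 alone.

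Rank here is that of a probe's signal, not of transcript number, because probes of the same gene differed in brightness. Among 3454 genes with 2 or more probes detected on all 5 arrays, the brightest probe exceeded the next by a median of 0.93 log2 units (quartiles 0.37 and 1.94). The difference was at least 1 for 47.5 percent of them, and the median distance in the ranking was 16.8 percentile points. Lack of detection likewise belongs to the probes. Of 232 members of 4 lists of machinery that all cells use (ribosome, oxidative phosphorylation, proteasome, spliceosome), 195 were detected on all 5 arrays and 28 on none, and 21 of these 28 had a single probe. Genes with 1 probe were undetected in 53.9 percent of cases, and genes with 3 or more in 16.5 percent.

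Promoters of bright and of undetected genes are shown as 4 examples, because CpG and GC box content differed between these classes over all genes. They were chosen after their levels were known. The windows cover 250 bases before to 50 after the start listed by RefSeq (GRCm38.p6), were available for 15207 of the genes with a probe, and were searched on both strands for 4 motifs. The GC box was searched as GGGCGG. The CCAAT box was searched by the letters of its name. The TATA box was searched as TATAAA. The cyclic AMP response element was searched as TGACGTCA. No motif contains another, though ends may overlap. Cldn11 (chr3:31149670-31149969, plus strand) is a bright Sertoli gene, Eef1a1 (chr9:78481675-78481974, minus strand) a bright gene of all cells, Ldhc (chr7:46861013-46861312, plus strand) a spermatocyte gene that spread widely between arrays, and Prm1 (chr16:10796774-10797073, minus strand) a spermatid gene detected on no array. Capitals mark the motifs found.
Cldn11: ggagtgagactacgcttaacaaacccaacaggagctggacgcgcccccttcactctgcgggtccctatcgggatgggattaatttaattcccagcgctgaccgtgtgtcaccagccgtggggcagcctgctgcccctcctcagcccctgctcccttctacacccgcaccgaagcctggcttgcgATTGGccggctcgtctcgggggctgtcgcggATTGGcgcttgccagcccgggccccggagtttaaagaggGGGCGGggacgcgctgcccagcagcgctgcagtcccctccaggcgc
Eef1a1: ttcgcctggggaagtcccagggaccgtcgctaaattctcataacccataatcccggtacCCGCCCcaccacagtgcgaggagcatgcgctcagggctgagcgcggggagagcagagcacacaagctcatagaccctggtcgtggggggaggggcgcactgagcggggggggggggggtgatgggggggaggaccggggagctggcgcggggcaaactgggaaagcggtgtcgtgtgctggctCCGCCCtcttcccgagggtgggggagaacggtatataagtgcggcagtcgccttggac
Ldhc: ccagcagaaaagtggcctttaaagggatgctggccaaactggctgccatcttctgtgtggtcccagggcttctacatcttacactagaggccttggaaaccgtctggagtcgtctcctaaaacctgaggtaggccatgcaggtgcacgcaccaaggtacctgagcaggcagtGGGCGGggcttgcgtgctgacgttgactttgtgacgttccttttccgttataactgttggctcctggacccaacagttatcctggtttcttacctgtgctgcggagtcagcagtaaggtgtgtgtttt
Prm1: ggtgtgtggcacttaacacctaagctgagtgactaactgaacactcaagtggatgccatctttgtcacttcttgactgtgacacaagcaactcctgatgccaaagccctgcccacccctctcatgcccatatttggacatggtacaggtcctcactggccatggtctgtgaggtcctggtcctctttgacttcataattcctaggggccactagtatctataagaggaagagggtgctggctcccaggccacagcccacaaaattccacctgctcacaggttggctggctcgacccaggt
The Cldn11 window held 24 CpG dinucleotides and the Eef1a1 window 22, against 9 in Ldhc and 1 in Prm1. Among windows not shown, that of Piwil1, also a spermatocyte gene that spread widely, held 18. The window of the Leydig cell gene Insl3 held 16. Across all genes with a window the median was 15. It was 22 in the brightest 10 percent of detected genes, 21 in the middle 20 percent, 16 in the dimmest 10 percent and 5 among undetected genes. Without olfactory, vomeronasal and taste receptor genes the median of undetected genes was 7. A GC box was present in 68.0 percent of windows of these brightest genes, 67.9 percent in the middle, 55.3 percent in the dimmest and 28.7 percent of undetected genes, against 49.9 percent of all. Without olfactory, vomeronasal and taste receptor genes the undetected share was 34.6 percent. A TATA box was present in 9.29 percent of the brightest genes and 20.5 percent of undetected genes, against 12.5 percent of all. It was present in 6.32 percent in the middle and 8.32 percent in the dimmest. Without the receptor genes the undetected share was 16.3 percent. The CCAAT box was present in 43.7 percent of the brightest and 38.9 percent of undetected genes, against 38.6 percent of all. The cyclic AMP response element was found in 4.46 percent of the brightest and 1.32 percent of undetected genes, against 2.48 percent of all.

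The top of the ranking was filled by the translation machinery, histone H2A, energy metabolism, the cytoskeleton and a few Sertoli cell genes. The 20 brightest genes, in order, were Rplp1, Aard, Eef1a1, Rpl41, Rps29, H2ac24, Rpl23, Rpl38, Tuba1b, Gstm2, H2ac20, Defb19, H2ac10, Cldn11, Ubb-ps, H2ac13, Rps12, Acta2, Atp5b and Rpl35, with levels from 15.04 to 14.31. Of the 100 brightest, 52 belonged to at least 1 of the 41 lists examined, among them 24 ribosomal protein genes, 6 of oxidative phosphorylation, 5 of the cytoskeleton, 4 translation factors, 4 Sertoli cell genes and 3 globin genes. Rplp1, a protein of the large ribosomal subunit stalk, read 15.02 on WT 8, 15.08 on WT 9, 15.08 on WT 10, 15.02 on WT 11 and 15.02 on WT 12. The repeated values come from quantile normalization, which gives the same set of values to every array, so spreads at the very top are small by construction. Neighbours near the top were not ordered beyond their spread: of the first 20 adjacent pairs, 1 (Rpl41 above Rps29) kept its order on all 5 arrays. H2ac24, H2ac20, H2ac10 and H2ac13 are near-identical histone H2A genes and Ubb-ps is a pseudogene of ubiquitin B, so their signal can come from their copies and is uncertain.

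Sertoli cell genes were the brightest of the cell type lists. Of 30 measured, 26 were detected on all 5 arrays and 3 on none, 12 stood in the brightest 10 percent of detected genes, and the median member lay at percentile 84.0 of all genes. Aard, a Sertoli cell gene of the list used, read 14.97 on WT 8, 15.02 on WT 9, 14.97 on WT 10, 15.08 on WT 11 and 14.85 on WT 12 (14.98 ± 0.08, SD, n = 5). Defb19, a beta-defensin, read 14.42, 14.54, 14.62, 14.59 and 14.69 in the same array order (14.57 ± 0.10, SD, n = 5). Cldn11, the claudin of the Sertoli cell barrier whose promoter is shown above, read 14.45, 14.51, 14.60, 14.49 and 14.54 (14.52 ± 0.06, SD, n = 5). All 3 exceeded 14.4 on every array. Below them came Defb36 at 13.32 ± 0.03, Amhr2, the receptor of anti-Müllerian hormone, at 13.04 ± 0.08, the transcription factor Sox9 at 12.78 ± 0.18, inhibin alpha (Inha) at 12.44 ± 0.11, and the hedgehog ligand Dhh at 12.18 ± 0.21 (SD, n = 5 each).

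Other Sertoli cell genes lay lower. Fshr, the receptor of follicle-stimulating hormone, stood at 9.91 ± 0.26 (SD, n = 5). Amh, the hormone whose promoter drives the Cre of this study, read 8.87 on WT 8, 9.85 on WT 9, 9.56 on WT 10, 9.51 on WT 11 and 8.65 on WT 12 (9.29 ± 0.50, SD, n = 5), so WT 8 and WT 12 were low. Gdnf, the growth factor for spermatogonial stem cells, stood at 8.78 ± 0.31, Sox8 at 8.97 ± 0.22, Gata1 at 7.87 ± 0.21 and Gata4 at 7.25 ± 0.20 (SD, n = 5 each). Kitl, Dmrt1 and Nr0b1 were detected on no array, and Tsx on 1. Wt1, Inhbb and Clu were listed but unnamed in the probe table used here.

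Peritubular, stromal and vascular genes were present on all arrays. In the peritubular myoid list 10 of 12 genes were detected on all 5 arrays and 2 on none. Smooth muscle actin Acta2 stood at 14.37 ± 0.06, the myosin kinase Mylk at 12.86 ± 0.06, Myl9 at 11.92 ± 0.09 and Myh11 at 10.71 ± 0.15, while Cnn1 and Synpo2 were undetected (SD, n = 5). In the stromal list 14 of 17 were detected on all 5, led by the matrix proteins Sparc at 13.44 ± 0.07 and Dcn at 12.47 ± 0.09, with Dlk1 at 12.44 ± 0.21. The endothelial list had 13 of 16 on all 5, all at or below Egfl7 at 10.09 ± 0.06, with Pecam1 at 7.48 ± 0.05 and the angiopoietin receptor Tek at 7.14 ± 0.16. Macrophage genes had 12 of 17 on all 5 with none in the brightest 10 percent. The mannose receptor Mrc1 stood at 9.93 ± 0.17, Lyz2 at 9.69 ± 0.30, complement C1qc at 8.96 ± 0.19 and the growth factor receptor Csf1r at 6.42 ± 0.11 (SD, n = 5 each). Adult globin genes were among the brightest 100, with Hba-a1 at 13.39 ± 0.25, Hbb-bt at 13.28 ± 0.32 and Hbb-bs at 13.15 ± 0.27. Globin copies share sequence and cannot be told apart with certainty. The embryonic globins Hbb-y and Hba-x were undetected.

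**Figure D1:**
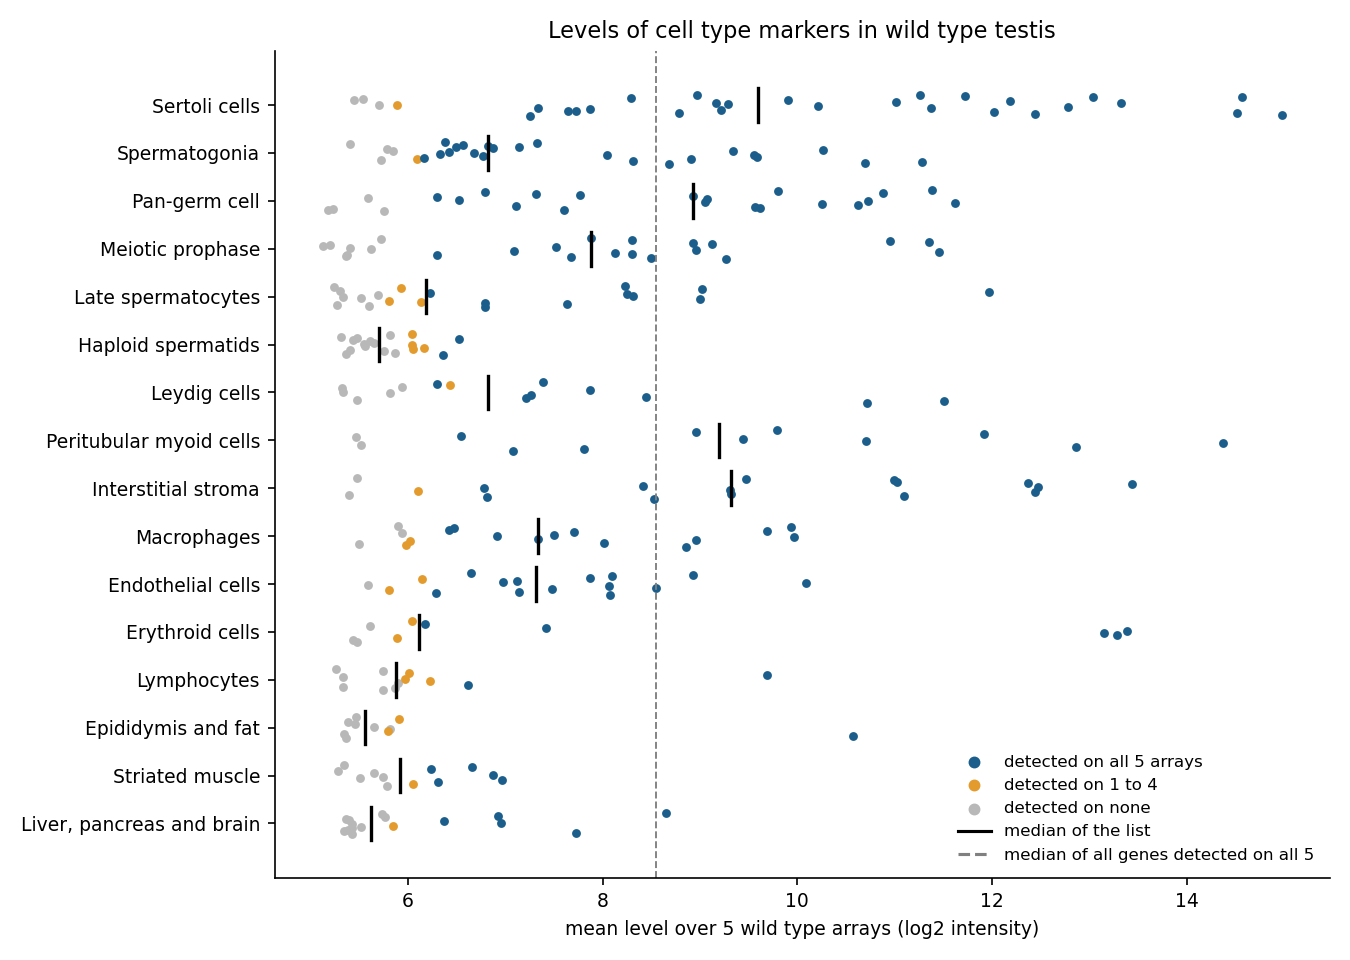
Mean log2 level over the 5 wild type arrays (x axis) of each measured member of the cell type lists (rows), coloured by the number of arrays on which it was detected, with the list median as a black bar and the median of all genes detected on all 5 arrays (8.55) as a dashed line. The medians of the Sertoli cell, peritubular, stromal and pan-germ cell lists lie right of the dashed line, and all members of the haploid spermatid list lie left of it.

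Leydig cell genes were detected about as often as all genes. Of 14 measured, 8 (57.1 percent) were detected on all 5 arrays and 5 (35.7 percent) on none, against 51.2 and 39.9 percent of all genes. In the brightest 10 percent of detected genes stood 1 of the 14 (7.14 percent), against 5.13 percent of all genes. Lhcgr and Por were unnamed in the table used here. The steroid enzyme Cyp17a1 was the brightest at 11.50 ± 1.05 and the peptide hormone Insl3 stood at 10.72 ± 0.17 (SD, n = 5 each). Cyp17a1 read 12.65 on WT 8, 11.66 on WT 9, 11.63 on WT 10, 9.78 on WT 11 and 11.81 on WT 12. Star, which carries cholesterol into mitochondria, read 6.71, 6.95, 6.36, 5.64 and 6.54 in the same order and was detected on 4 arrays. WT 11 was the lowest for both, and for the list mean, at -0.27 from the 5-array mean. That list mean includes Cyp17a1. Over its other 8 genes the mean differed by -0.089 on WT 11 and by -0.086 on WT 12. The low list mean on WT 11 thus rested largely on Cyp17a1. The side-chain cleavage enzyme Cyp11a1 stood at 7.88 ± 0.21 and Hsd17b3, which makes testosterone from androstenedione, at 8.45 ± 0.20 (SD, n = 5 each). Hsd3b1, Hsd3b6 and Fdx1 were undetected.

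Detection of germ cell genes was less frequent in the lists of later stages. In the spermatogonial list 22 of 27 genes (81.5 percent) were detected on all 5 arrays. In the list of genes shared by germ cell stages 19 of 23 were, in meiotic prophase 16 of 23 (69.6 percent), in late spermatocytes 10 of 20 and in haploid spermatids 2 of 18 (11.1 percent), against 51.2 percent of all genes. Medians by list stood at percentiles 57.2, 78.1, 68.2, 48.0 and 32.1 of all genes.

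Among spermatogonial genes the transcription factor Sohlh1 was the brightest at 11.28 ± 0.16, followed by the receptor Kit, a mark of differentiating spermatogonia, at 10.69 ± 0.13, and cyclin Ccnd2 at 10.27 ± 0.42 (SD, n = 5 each). Genes of undifferentiated spermatogonia were dimmer: Ret at 9.56 ± 0.35, Sall4 at 9.34 ± 0.11, Etv5 at 8.31 ± 0.22, Zbtb16 at 7.32 ± 0.15, Nanos2 at 6.68 ± 0.11 and Id4 at 6.33 ± 0.12. Gfra1, the co-receptor of Gdnf, stood at 6.09 ± 0.18 and was detected on 3 arrays. Stra8, which is needed for entry into meiosis, and Sohlh2, Taf4b and Eomes were undetected. Of genes used through several germ cell stages, the RNA-binding protein Dazl stood at 11.38 ± 0.22, Taf7l at 11.62 ± 0.17, Tex19.1 at 10.88 ± 0.04 and the helicase Ddx4 at 7.60 ± 0.20. Mael and Sycp3 were undetected.

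Meiotic genes were bright in part. The cohesin subunit Stag3 stood at 11.46 ± 0.18, the synaptonemal complex protein Syce3 at 11.35 ± 0.38 and the helicase Mov10l1 at 10.95 ± 0.33 (SD, n = 5 each). Spo11, which makes the DNA breaks of recombination, read 9.08 on WT 8, 8.42 on WT 9, 8.73 on WT 10, 8.67 on WT 11 and 9.91 on WT 12. Sycp1, Hormad1 and Dmc1 were undetected. Of the late spermatocyte genes the heat shock protein Hspa2 was the brightest at 11.96 ± 0.48, and the chaperone Clgn stood at 9.02 ± 0.70. Ccna1, Pgk2, Crisp2 and Adam2 were undetected. In the spermatid list Klhl10 at 6.52 ± 0.10 and the transition protein gene Tnp1 at 6.36 ± 0.14 were the brightest, both near the lower end of detection, and Prm1, Tnp2, Acrv1 and Akap4 were undetected.

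Genes of cells and organs other than those of the testis were undetected on all arrays in 7 of 12 cases for lymphocytes, 7 of 10 for epididymis and fat, 6 of 12 for striated muscle and 10 of 16 for liver, pancreas and brain, against 39.9 percent of all genes. Of the lymphocyte genes 2 were detected on all 5 arrays, Zap70 at 6.62 ± 0.17 and the pore-forming protein Prf1 at 9.68 ± 0.32, while Cd4, Cd8a, Ms4a1 and Cd79b were undetected (SD, n = 5). Of 10 genes of epididymis and fat, Cidea, a lipid droplet protein, was the only one detected on all 5, at 10.57 ± 0.16, while Fabp4, Plin1 and Lcn5 were undetected. Of 12 striated muscle genes 5 were detected on all 5, none above 6.96, and Ckm and Acta1 were undetected. Of 16 genes of liver, pancreas and brain 5 were detected on all 5, led by the plasma protein gene Ahsg at 8.66 ± 0.21 and insulin Ins2 at 7.73 ± 0.28, while Alb, Gcg and Gfap were undetected.

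The lists of cell functions showed where the general machinery stood. Ribosomal protein genes had 55 of 62 detected on all 5 arrays with a median at percentile 99.1, and oxidative phosphorylation 62 of 76 at percentile 96.6. Cytoskeleton (13 of 18, percentile 95.6), spliceosome and hnRNP (46 of 55, 90.6), proteasome (32 of 39, 88.3) and translation factors (53 of 67, 84.3) followed. Genes of a dividing tissue were well represented. DNA replication had 21 of 24 on all 5, with Rpa1 at 11.66 ± 0.05 and Mcm5 at 11.58 ± 0.14, and mitosis had 15 of 21, with the centromeric histone Cenpa at 12.19 ± 0.17 and topoisomerase Top2a at 10.95 ± 0.25 (SD, n = 5 each). Pcna, Ccnb2 and Ccna2 were undetected. In glycolysis 16 of 18 were detected on all 5, with Ldha at 10.88 ± 0.24 and Ldhb at 7.09 ± 0.43. Imprinted genes had 12 of 22 (54.5 percent) on all 5, near the 51.2 percent of all genes, and were led by the growth factor Igf2 at 12.50 ± 0.20.

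The middle of the detected range held genes of no single cell type. The 10 genes nearest the median level of 8.55 were Prkd2, Ccdc124, Pdcd5, Tsfm, Foxj2, Slc25a25, Rtel1, Zswim1, Kdm6b and Wrap53, which include a protein kinase, a mitochondrial elongation factor (Tsfm), a DNA helicase (Rtel1), a histone demethylase (Kdm6b) and a telomerase protein (Wrap53). Zinc finger genes named Zfp were near the genome average, with 176 of 304 (57.9 percent) detected on all 5 arrays, and so were solute carriers, with 151 of 316 (47.8 percent).

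The undetected class held nearly all sensory receptor genes and most members of some families of skin, liver and immune cells. Olfactory, vomeronasal and taste receptor genes made up 16.3 percent of it, 1238 of the 1286 measured. Of 1078 olfactory receptor genes, 7 were detected on all 5 arrays, none above 6.45. Of 173 vomeronasal and 35 taste receptor genes none was. Keratins and keratin-associated genes had 74 of 91 undetected, cytochromes P450 66 of 86, beta-defensins 31 of 42 and interleukins with their receptors 36 of 59. Within these families single members stood out as bright: Krt10 at 9.06 ± 0.11, Cyp17a1 at 11.50 ± 1.05, Defb19 and Defb36 as given above, and the receptor Il17re at 9.43 ± 0.17 (SD, n = 5 each). Of the Hox homeobox genes, which set position along the body axis, 13 of 38 were detected on all 5 arrays, with Hoxd9 the brightest at 9.35 ± 0.10 (SD, n = 5). Of the X-linked Rhox homeobox genes 4 of 9 (44.4 percent) were, against 51.2 percent of all genes. Rhox8 stood at 12.02 ± 0.18 and Rhox5 at 10.22 ± 0.39, both Sertoli cell genes (SD, n = 5 each). The brightest undetected genes were Sorcs1 at 5.99, then Nipal4, Nars2, Serpina4-ps1, Unc79, Nos1, Lzts1, Peg10, Abca15 and Tbx6, down to 5.96.

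**Figure D2:**
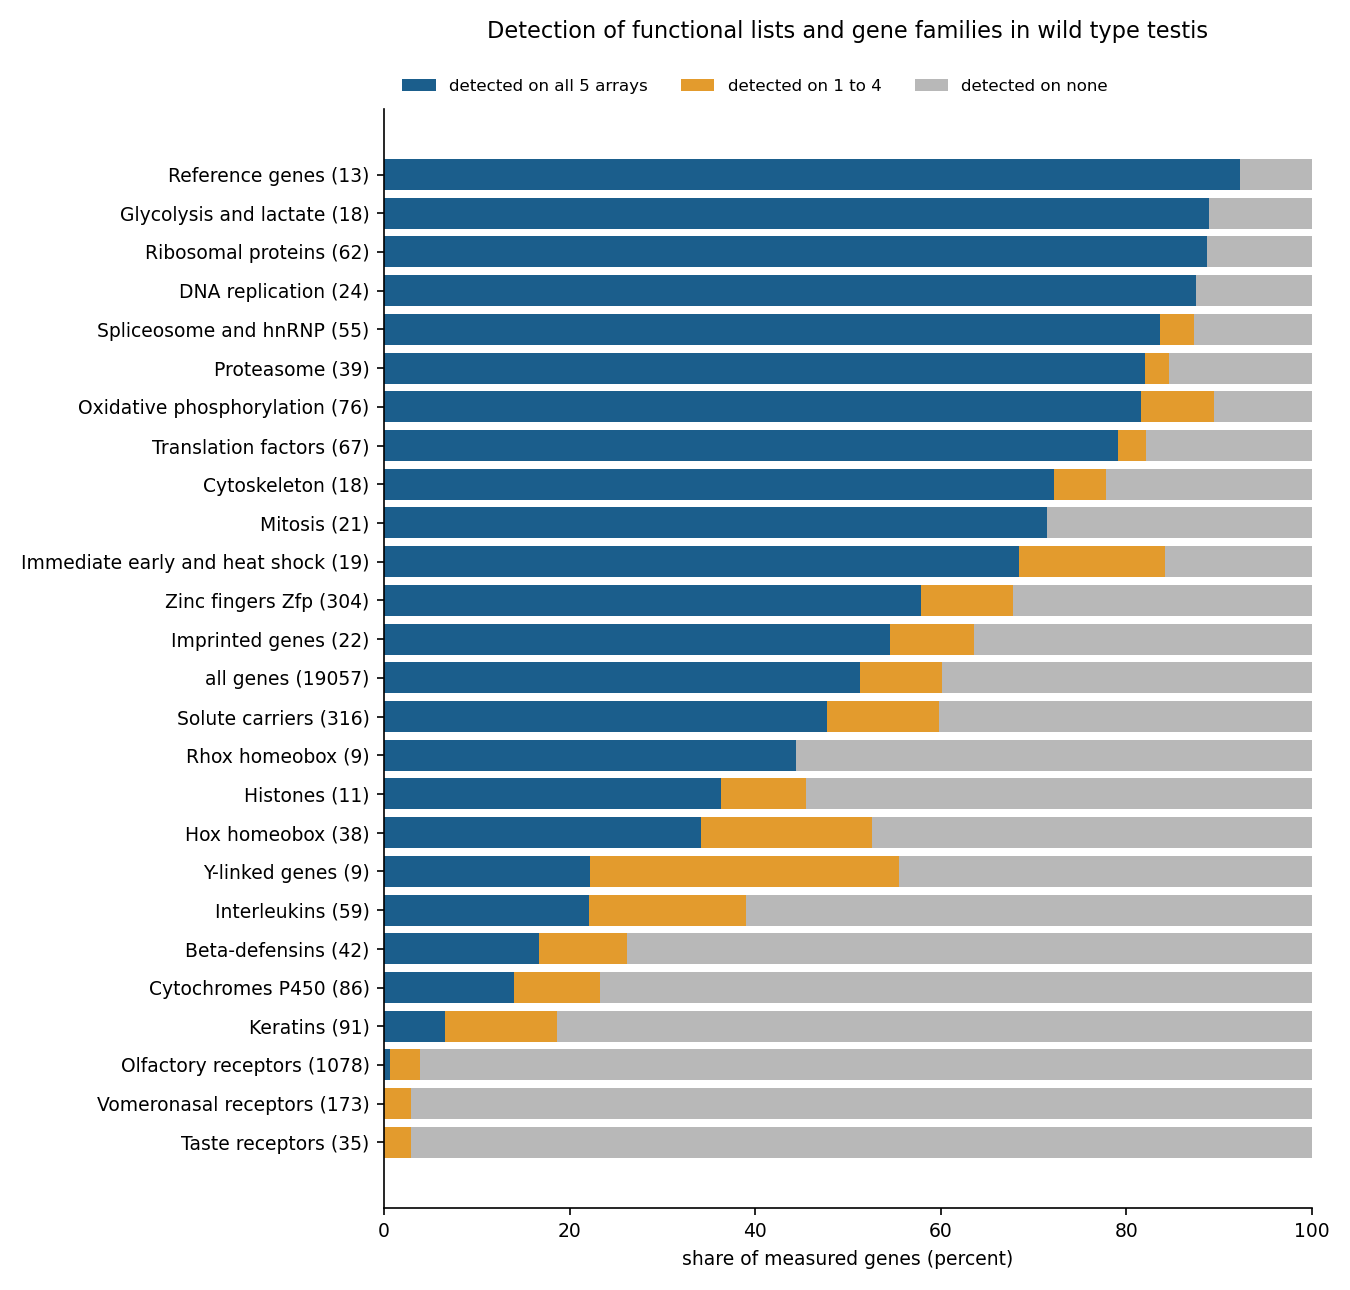
Share of measured genes (x axis, percent) of each functional list and gene family (rows, number measured in parentheses) detected on all 5, on 1 to 4 or on none of the wild type arrays. Ribosomal proteins and the other core machinery stand above the share of all genes (51.2 percent), and olfactory, vomeronasal and taste receptors have hardly any detected member.

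Genes of the sex chromosomes were read by their location. Of 710 X-linked genes 51.0 percent were detected on all 5 arrays, and 51.4 percent without the receptor families, within the range over the 19 autosomes, the lowest of which was chromosome 1 at 47.0 percent and the highest chromosome 11. Of 19 Y-linked genes 2 were, Usp9y at 9.26 ± 0.30 and Uty at 6.41 ± 0.16 (SD, n = 5). Zfy1 was detected on 4 arrays, Kdm5d on 2 and Eif2s3y on 2, while Sry, Zfy2, Ssty1 and Ssty2 were undetected. Eif2s3y, a translation factor that spermatogonia need in order to proliferate, read 7.32 on WT 8 and 7.84 on WT 9 but 5.33 on WT 10, 5.22 on WT 11 and 5.38 on WT 12. It was high and detected on WT 8 and WT 9 alone, and entered the variance test given below only through these 2 arrays. Its variance passed that test (limma adjusted p = 0.016), which is no separate support for the difference between the arrays. Mitochondrial genes were detected on all 5 in 6 of 8 cases.

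The genes of lowest spread were taken among genes above the median level. The median SD over 5 arrays was 0.10 log2 units in the brightest 10 percent of detected genes, 0.15 between levels of 6.99 and 7.47 and 0.11 in the dimmest 10 percent. The lowest SDs were those of Ppp3cb, a calcineurin subunit, at 0.0050, Eri3 at 0.0087, the elongation factor Eef1a1 at 0.011, Rpl37 at 0.016, the small GTPase Rheb at 0.016, then Map3k12, Fis1, Jpt1, Slc39a13 and Sh3tc2, up to 0.023. Eef1a1 (rank 3 by level) and Rpl37 (rank 23) lie near the top of the ranking, where quantile normalization makes spreads small by construction. Ppp3cb read 11.23 on WT 8, 11.22 on WT 9, 11.22 on WT 10, 11.23 on WT 11 and 11.23 on WT 12. Which genes held the lowest places depended on the arrays: without WT 12, 30 of the 100 genes of lowest SD remained among the lowest 100.

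Genes often used as references did not vary equally. Ppia stood at 14.23 ± 0.07, Hprt at 11.88 ± 0.07, Tfrc at 10.83 ± 0.08, Tbp at 9.20 ± 0.12, Pgk1 at 8.90 ± 0.12 and Rplp0 at 8.28 ± 0.13, each below the median SD of genes of like level. Gapdh stood at 12.29 ± 0.12 and Actb at 13.54 ± 0.17, above the 0.096 of theirs, the brightest 10 percent. Gusb at 9.81 ± 0.24, Ywhaz at 10.40 ± 0.28, Rpl13a at 9.43 ± 0.30 and B2m at 11.08 ± 0.33 had SDs above those of 90 percent of the genes detected on all 5 arrays (SD, n = 5 each). B2m read 11.22 on WT 8, 11.53 on WT 9, 10.87 on WT 10, 11.14 on WT 11 and 10.67 on WT 12. Sdha was undetected. No reference gene passed the variance test described next.

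A set of genes spread far more than others of like level. The variance of each of 10904 genes detected on at least 2 arrays was tested against the trend of variance with level (limma's robust empirical Bayes prior, F-test, Benjamini-Hochberg adjusted p under 0.05). Of these genes, 35 passed (0.321 percent of all tested), with SDs from 0.84 to 2.46 against a median of 0.13, and 710 passed at an unadjusted p under 0.05. The count rests on the method and on single arrays. It was 0 with a prior that is not robust, 4 with the mean of a gene's probes and 13 among genes detected on all 5 arrays. It was 0 without WT 8, 19 without WT 9 and 40 without WT 12, where 21 of the 35 remained. A gene detected on 2 arrays only, such as Sspn, Eif2s3y, Cbwd1, Lipa, Lrrc57 or Thap4, entered the test through the arrays where it was high.

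**Figure D3:**
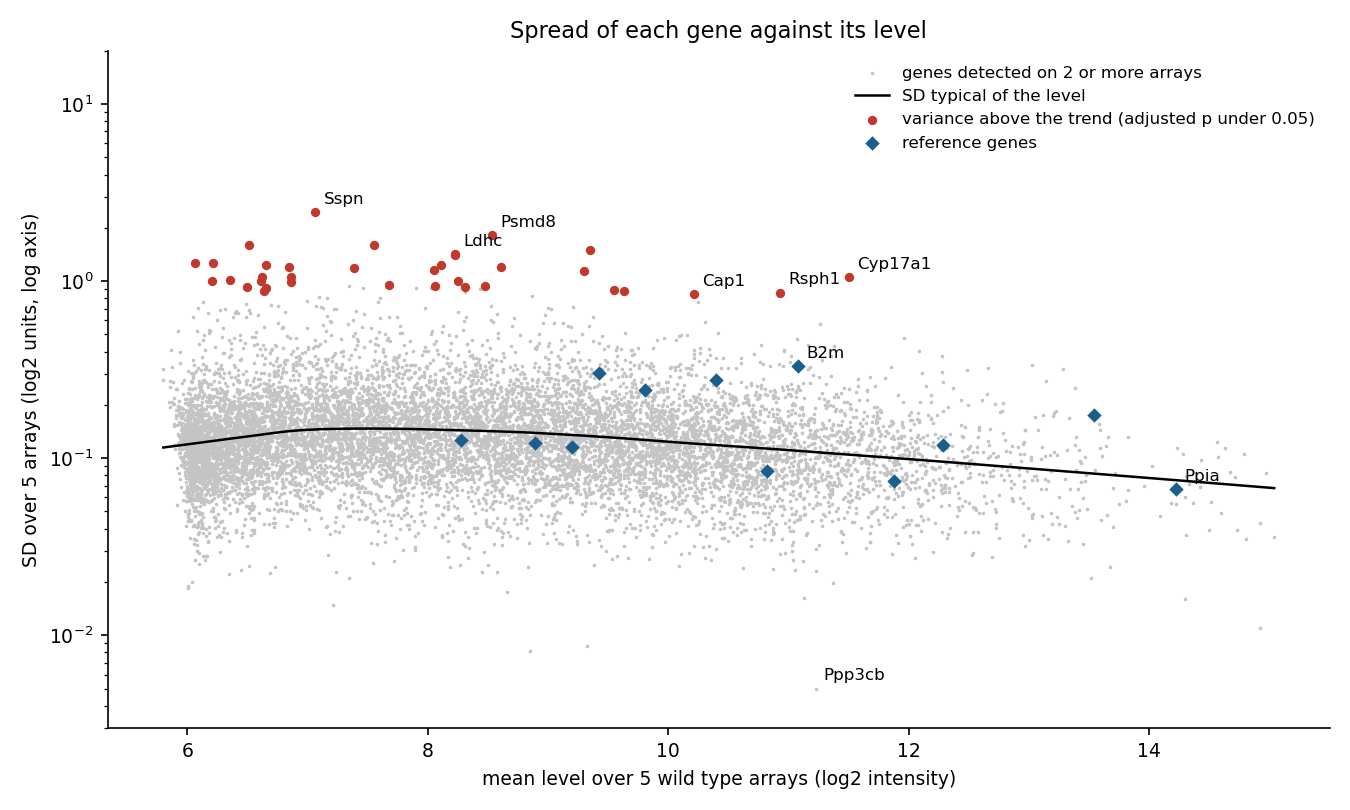
SD over the 5 wild type arrays (y axis, log2 units, log scale) against mean log2 level (x axis) for genes detected on 2 or more arrays (grey), with the SD typical of each level (line), the 35 genes of variance above the trend (red) and the detected reference genes (blue diamonds). The red genes have SDs from 0.84 to 2.46, and the reference genes run from Ppia below the line to B2m well above it.

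Many of the varying genes were high on WT 12. Of the 35 genes, 15 were farthest from the others on WT 12, and 12 of these 15 were high there. Ldhc, the lactate dehydrogenase of germ cells, read 7.83 on WT 8, 6.82 on WT 9, 8.25 on WT 10, 7.66 on WT 11 and 10.58 on WT 12 (limma adjusted p = 0.016). Fabp9, a fatty acid-binding protein of the acrosomal region, read 7.95, 7.00, 7.82, 7.72 and 10.63 in the same order (limma adjusted p = 0.016). Rsph1, a radial spoke protein of cilia and flagella, read 10.80, 10.15, 10.76, 10.56 and 12.40 (limma adjusted p = 0.030). All 3 were highest on WT 12 and lowest on WT 9. Piwil1, Cox8c, Kctd19, Morn5, Lypd10, Lypd11, C2cd4a, Zfp985 and Pip4p1 were also high on WT 12, at limma adjusted p between 0.024 and 0.049. None of these 12 passed without WT 12, where the limma adjusted p was 0.0808 for Ldhc, 0.373 for Fabp9, 0.509 for Rsph1 and between 0.543 and 0.993 for the other 9.

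Means of the marker lists also differed between arrays. The mean of the 11 late spermatocyte genes detected on 2 or more arrays differed from the 5-array mean by 1.05 log2 units on WT 12 and by -0.48 on WT 9, and the meiotic prophase mean by 0.45 on WT 12. The range of list means over the arrays was 1.53 for late spermatocytes and 0.71 for meiotic prophase, the widest of the 39 lists with all arrays. Without WT 12 the ranges were 0.38 and 0.40, and those of the immediate early and heat shock (0.46), Y-linked (0.45) and Leydig cell (0.42) lists were wider. The Y-linked and Leydig cell ranges rested largely on 1 gene of the 35 each. Likewise without WT 12, they were 0.13 without Eif2s3y and 0.22 without Cyp17a1. Piwil1, Ldhc and Cox8c are both late spermatocyte genes of the list and among the 35. Over the other 8 the mean differed by 0.73 on WT 12, and its range was 1.03, or 0.29 without WT 12. On WT 12 the pan-germ cell mean differed by 0.19 (range 0.26 over all arrays, 0.058 without WT 12), the spermatogonial mean by -0.11 (0.15 and 0.033) and the Sertoli cell mean by -0.17 (0.27 and 0.18). Lists of other kinds also differed there, the lymphocyte mean by 0.32, beta-defensins by 0.27, imprinted genes by -0.19 and erythroid genes by 0.18. The mean of 6 haploid spermatid genes lay within 0.11 of its 5-array mean on every array. WT 12 also stood farthest from the other arrays over all probes, and the part of that in this result was not tested.

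**Figure D4:**
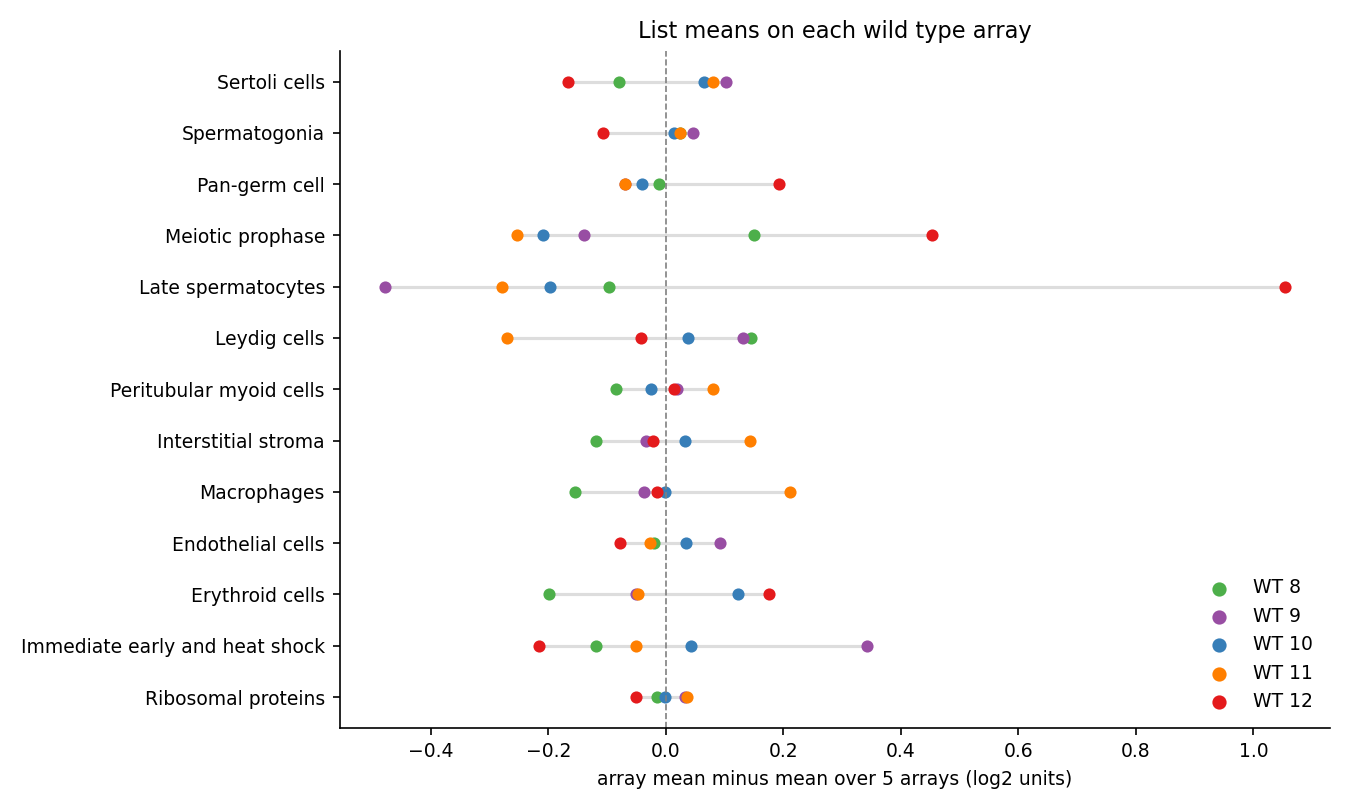
Mean level of each list on each of the 5 wild type arrays as a difference from the 5-array mean (x axis, log2 units), over the members detected on 2 or more arrays. Late spermatocytes reach 1.05 and meiotic prophase 0.45 on WT 12, and ribosomal proteins lie between -0.05 and 0.04 on all arrays.

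Other lists singled out other arrays. Immediate early and heat shock genes, which many cells switch on within minutes of a stimulus, had their highest mean on WT 9, at 0.34 from the 5-array mean, and their lowest on WT 12, at -0.22. Junb, an AP-1 subunit, read 7.67 on WT 8, 9.49 on WT 9, 7.81 on WT 10, 7.28 on WT 11 and 7.26 on WT 12, and Egr1 stood at 10.22 ± 0.41 (SD, n = 5). Neither passed the variance test. Of the Leydig cell genes, Cyp17a1 passed it (limma adjusted p = 0.016), with WT 11 lowest. The macrophage mean differed by 0.21 on WT 11 and by -0.16 on WT 8.

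Most other varying genes belonged to no cell type list, and many lay at 2 separate levels. Psmd8, a proteasome subunit, read 9.90 on WT 8, 9.77 on WT 9 and 9.90 on WT 12, but 6.51 on WT 10 and 6.60 on WT 11 (limma adjusted p = 0.015). Lipa, the lysosomal acid lipase, read 7.46 on WT 9 and 7.45 on WT 11, and between 5.11 and 5.21 on the other 3 arrays (limma adjusted p = 0.016). In both the high and the low arrays were over 2 log2 units apart. Sspn, sarcospan, read 9.11 on WT 8 and 10.32 on WT 9, but 5.21 on WT 10, 5.37 on WT 11 and 5.31 on WT 12 (limma adjusted p = 0.0059). Its high arrays differed by more than the range allowed for a split below, so it was not counted there. Washc3, Cbwd1, Dennd2a, Uap1, C1galt1, Igsf11, Gfpt1, Cmas, Lrrc57, Syne2 and Thap4 completed the 20 named genes of highest variance, at limma adjusted p between 0.015 and 0.030.

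**Figure D5:**
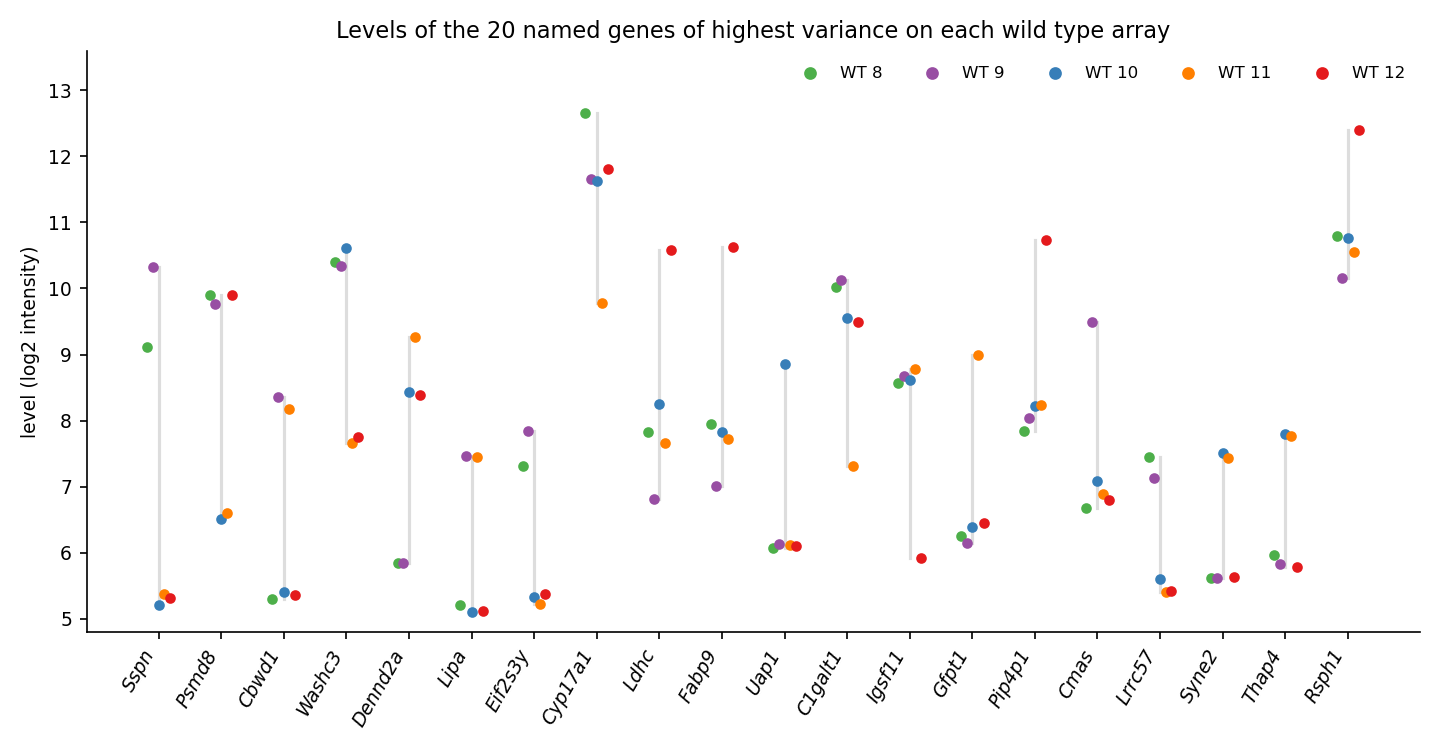
Level (y axis, log2 intensity) of the 20 named genes of highest variance (x axis, in order of p) on each of the 5 wild type arrays. Ldhc, Fabp9, Pip4p1 and Rsph1 are high on WT 12 alone, and Cyp17a1 is lowest on WT 11. Psmd8 and Thap4 both set WT 10 and WT 11 apart, Psmd8 low and Thap4 high there. Cbwd1 and Lipa are both high on WT 9 and WT 11.

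A split into 2 levels was defined as a gap of at least 1 log2 unit with a range under 0.5 on either side. It was found in 57 genes (0.523 percent of the 10904), of which 42 set 1 array apart and 15 split the arrays 2 against 3. Of the 57, 25 were high on WT 12 alone and 7 low on WT 12 alone, and without WT 12 the count was 28. Of the 57, 38 (66.7 percent) had another of them within 10 Mb, against 4115 (37.8 percent) of the 10883 tested genes with a position. In 23 of them a neighbour had the same split of the arrays, counting high and low alike. No share to hold against these 23 was computed. With so many of the 57 setting WT 12 apart, neighbours can share a split for that alone. On chromosome 14, Pip4p1, Exoc5, Ndrg2, Psmb5, Ang, Pspc1 and Naa30 all set WT 12 apart, 5 of them high and 2, Exoc5 and Pspc1, low. On chromosome 4, Zfp985 and Pik3cd were high and Zfp933 and Agtrap low on WT 12. Cbwd1 and Lipa on chromosome 19 shared the split of WT 9 and WT 11 from the rest, Uap1 and F11r on chromosome 1 were high on WT 10, and Cmas and Atf7ip on chromosome 6 were high on WT 9. Neighbours were found in the GRCm38.p6 gene table.

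Most of the same genes also spread widely within the other groups, though none passed at an adjusted p with all 7 arrays. In the 7 arrays of the other groups, with each group's mean removed, 0 of 11032 genes passed the limma test at an adjusted p under 0.05 (0 percent) and 505 (4.58 percent) at an unadjusted p under 0.05. Of the 35 genes 34 were tested there, and 33 of the 34 had an unadjusted p under 0.05. Their SD there was a median of 7.61 times that typical of their level, against 1.02 for all genes, and the lowest ratio was 2.19, for Cap1. Without replicate 6 of the SC-Rb+/- group, 19 of the 34 passed at an adjusted p under 0.05, and 24 of all 10900 genes. With any other of the 7 arrays left out, or with values background-corrected by neqc, none passed. The unadjusted threshold was added after seeing the data. Of the 57 genes at 2 levels 55 were tested, and 46 had an unadjusted p under 0.05.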

How the data were processed

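Total RNA of whole testis was measured on 12 bead arrays, of which the 5 labelled wild type were described. Each array has, per the file headers, an unnormalized linear intensity and a detection p-value for every probe, both as deposited. The authors' processed values, deposited as linear intensity, agreed between arrays to within 0.0655 percent rank by rank, and quantile normalization of the unnormalized table gave them back with differences of up to 0.00546 percent. Their median was 56.2, the lowest value 30.0, and they are not centred. No source names the scanner software.

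Probes were named through GEO's platform annotation, where 34885 had 1 symbol, 18 several and 10378 none. By Entrez identifier 34807 matched the GRCm38.p6 gene table and 0 symbols changed. Levels were log2 of the processed values, with no filter and no pseudocount. Each gene took the probe with the highest wild type mean. Of the genes, 9172 had several probes. The files name no genome build. Promoter windows and distances between genes are from RefSeq tables of GRCm38.p6, and no other coordinates are given.

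Variance was tested with limma 3.58.1 in R 4.3.3 (fitFDistRobustly with a trend on level, 4 degrees of freedom, F upper tail, Benjamini-Hochberg), after a filter on detection on at least 2 arrays. In data simulated from the trend for this comparison with 10904 genes, 200 of them changed in each of 20 draws, 2.3 percent of genes with 3 times the typical SD were recovered and 32.4 percent of those with 6 times, with 1.15 false calls a draw. In data so simulated, the genes called were therefore only a part of those that vary. Recovery there depends on the settings, and the share recovered on the real arrays was not tested. Alternatives were background correction by neqc, median scaling, the mean of a gene's probes, a detection p under 0.01, other priors and filters, other gaps and each array left out. The unadjusted p in the other arrays, list means without genes of high variance and the share of all genes with a neighbour at 2 levels were added after seeing the data. Tables and plots used Python 3.11.15, pandas 2.3.3 and matplotlib 3.10.9.

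Lists, tests and the rule for named genes were chosen with earlier results of these data known. The rule named the 20 brightest genes, the 10 nearest the median, the 10 brightest undetected, the 10 of lowest SD above the median level, the 20 of smallest variance p, the genes at 2 levels with the largest gaps, all reference and Y-linked genes, and the brightest, the undetected and the first-written members of each list. Riken, Gm, LOC and EST names were left out. Ddx4 and other list members outside it, other genes of the 35, and genes of shared splits were named after their values were seen. So were the promoters shown or counted singly. The number of arrays limits the precision of every SD.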

Additional observations from a re-analysis of the deposited data

Results flagged for a closer look

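Among groups of 5 values, a value was singled out where its gap to the nearest other value exceeded 0.71 of the whole range. Chance singles out about 1 in 20 such groups. Of 111 groups examined, 15 were singled out: 6 of 39 list means and 9 of 71 named genes. The remaining group, the number of genes detected per array, was not. Of the 9 genes all but Acta2 (8 genes) were named because they varied most on these arrays, so the chance rate does not apply to them. The 39 list means come from the same 5 arrays and some lists share genes, so they are not independent. The chance rate therefore gives no expected count to hold against the 6 lists.

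WT 12 was the array apart in all 6 lists. It was the highest for late spermatocytes (gap 0.751 of the range), pan-germ cell genes (0.779), lymphocyte genes (0.899) and beta-defensins (0.829), and the lowest for spermatogonia (0.784) and the cytoskeleton (0.784). Without WT 12 the ranges of these means were 0.38 for late spermatocytes (1.53 with it), 0.058 for pan-germ cell genes (0.26), 0.042 for lymphocyte genes (0.42), 0.065 for beta-defensins (0.38), 0.033 for spermatogonia (0.15) and 0.039 for the cytoskeleton (0.18). The lymphocyte mean rests on 4 genes and the beta-defensin mean on 8. Among named genes WT 12 was highest for Fabp9 (0.740), Rsph1 (0.714) and Pip4p1 (0.861) and lowest for Acta2 (0.760) and Igsf11 (0.927).

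Other arrays stood apart for 4 genes. Uap1 was high on WT 10 (0.978), Cmas high on WT 9 (0.857), Gfpt1 high on WT 11 (0.892) and C1galt1 low on WT 11 (0.772).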

How the results depend on the processing

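No paired analysis was possible because all 5 arrays belong to 1 group and their numbers recur in no other group. Of the results on detection, the number of genes detected on all 5 arrays ran from 9024 at a detection p under 0.01 to 10025 without WT 9. The number of cell type lists with more genes detected on all arrays than not was 9, and 8 at a detection p under 0.01. Lists of cells and organs other than those of the testis were not counted there. Of all genes 51.2 percent were detected on all 5 arrays, so a list at that share already counted. Of the 100 brightest genes 65 remained with the mean of a gene's probes, and 98 to 100 under the other alternatives. The 100 genes of lowest SD shared 34 with median scaling, 36 with the mean of probes and 30 to 45 when an array was left out. The 35 genes of high variance became 29 with neqc, 45 with median scaling, 4 with the mean of probes, 153 with no detection filter, 13 among genes detected on all 5, 7 with no trend on level, 0 with no robust prior (where 570 passed at an unadjusted p under 0.05) and 0 to 40 when an array was left out. With the filter of detection on all 5 arrays 9766 genes were tested, and 8 of the 35 that stayed in the test no longer passed. The cause of the changes in this count was not tested. In the other arrays 0 of the genes tested passed, 0 to 19 when an array was left out, and 33 at an unadjusted p. The 57 genes at 2 levels became 101 with a gap of at least 0.75, 24 with at least 1.5, and 28 to 83 when an array was left out. The median difference between probes was 0.93, 1.08 with neqc and 0.92 at a detection p under 0.01. Of 328 recomputed list percentiles 303 stayed within the spread between arrays, and 23 of the 25 that moved did so with the mean of probes.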
